A study of Mus musculus with 4 samples.

Results

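The genes described here are 10 mouse genes whose proteins sense foreign or misplaced RNA and DNA, or pass that signal on: *Ddx58*, *Ifih1*, *Dhx58*, *Mavs*, *Tlr3*, *Tlr7*, *Tlr9*, *Zbp1*, *Eif2ak2* and *Tmem173*. They were picked by function from a table of 53465 genes, and each symbol matched 1 gene. The table comes from Long RNA-seq of cultures that the study describes as FGSCs, female germline stem cells from mouse ovary. The cells carried lentiviral shRNA and went through drug selection: a non-targeting control shRNA in the shNC group and an shRNA against *Nat10*, which encodes the writer of N4-acetylcytidine (ac4C) in RNA, in the shNAT10 group. Each group had 2 libraries, and the labels give no mouse age, no time after infection and no single-cell clone. Which of the *Nat10* shRNA designs was used is not given in the sources used here. The comparison asks how the level of these transcripts differs between the 2 kinds of culture.

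Most germline markers were at or near 0 in these libraries. Of 18 in the list, 7 were listed at 0 in all 4 libraries, among them *Dazl*, *Pou5f1* and *Tfap2c*, and *Ddx4* was above 0 in shNAT10-1 only, at 0.0529 FPKM. The germline markers with the highest levels, *Kit* (14.5 to 24.5 FPKM) and *Ifitm3* (9.29 to 33.6 FPKM), are also expressed by other cell types. The list also holds *Stra8* and *Sycp3*, genes of meiosis that stem cells need not express. The study's text reports both higher after *Nat10* knockdown, in RNA and protein. Here *Stra8* was listed at 0 in all 4 libraries. *Sycp3* had 0.337 and 0.666 FPKM with shNC and 0.756 and 0.774 FPKM with shNAT10 and did not pass the threshold given below. The study also reports germline markers in its FGSCs, DDX4 and OCT4 (*Pou5f1*) among them, by RT-PCR and immunofluorescence. Its assays were not analysed here. In the same libraries all 15 pan-leukocyte markers were detected, with a summed level of 593 to 791 FPKM. Of 15 mast cell markers, *Cpa3*, a protease gene, had 245 to 272 FPKM, while 7 had a mean under 0.1 FPKM, with *Fcer1a*, *Mrgprb2* and *Tpsb2* at 0 in all libraries. The libraries are therefore named by shRNA only, and the results below describe the RNA of whole cultures. In bulk RNA, fewer cells of a type and less RNA per cell cannot be told apart.

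Cells recognise nucleic acids that should not be where they are. RIG-I (*Ddx58*) and MDA5 (*Ifih1*) bind double-stranded RNA in the cytosol and signal through MAVS on mitochondria, with LGP2 (*Dhx58*) as a regulator that lacks the signalling domain. TLR3, TLR7 and TLR9 read double-stranded RNA, single-stranded RNA and unmethylated CpG DNA inside endosomes. ZBP1 binds Z-form nucleic acids and can start necroptosis, PKR (*Eif2ak2*) phosphorylates the initiation factor eIF2α when it binds double-stranded RNA, and STING (*Tmem173*) is the adaptor for cyclic GMP-AMP made by cGAS. Signals from these proteins induce type I interferon, and interferon in turn raises the transcription of several of the sensor genes, through factors that bind interferon-stimulated response elements and gamma-activated sites.

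The sequences below are shown because they hold the letters of these elements in the members' promoters. RefSeq promoter windows on GRCm38.p6, 250 bases before to 50 after a transcription start, were used for 6 members: *Ddx58*, *Ifih1*, *Mavs*, *Tlr3*, *Tlr9* and *Eif2ak2*. GAAANNGAA, the core of the interferon-stimulated response element, was searched on both strands and was found in 3 of these 6 windows, compared with 8.56% of all 32851 windows of the table. It was found in the windows of 11 of the 23 interferon response genes (47.8%) that have one. TTCNNNGAA, the core of the gamma-activated site, was found in 1 of the 6 windows and in 8.30% of all windows. The capitals mark the matched letters, and each sequence is written 5′ to 3′ along the gene's strand, which is the minus strand in all of them. *Mavs*, *Tlr3* and *Tlr9* held neither motif within their windows. A match of letters is a description and not a binding site.

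Ifih1, chr2:62646348-62646377, before the start: agaattcgcgTTCCCTTTCctgtttctcac
Ifih1, chr2:62646206-62646233, after the start: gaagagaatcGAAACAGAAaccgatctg
Ddx58, chr4:40239803-40239832, across the start: ctgaggcagtTTCGATTTCctatggccagc
Eif2ak2, chr17:78882532-78882561, after the start: ccgccggGAAAACGAAACAGAAgagaaccg
Eif2ak2, chr17:78882731-78882760, before the start: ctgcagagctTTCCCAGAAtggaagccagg

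Counted from the transcription start, the *Ifih1* matches lay at -112 to -104, where the motif reads on the other strand, and at 33 to 41. The *Ddx58* match lay at 4 to 12 on the other strand. *Eif2ak2* held a pair of overlapping GAAANNGAA matches, at 19 to 27 and at 25 to 33, and the TTCNNNGAA match of the last line at -178 to -170. The 250 bases before the start of *Eif2ak2* and of *Ifih1*, the called members with a window that held a motif, are given below with the same capitals.

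Eif2ak2, chr17:78882573-78882822: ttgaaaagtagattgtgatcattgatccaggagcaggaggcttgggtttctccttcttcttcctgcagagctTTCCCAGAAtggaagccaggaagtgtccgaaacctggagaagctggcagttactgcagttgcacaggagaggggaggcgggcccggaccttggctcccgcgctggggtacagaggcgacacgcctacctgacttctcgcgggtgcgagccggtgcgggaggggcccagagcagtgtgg
Ifih1, chr2:62646256-62646505: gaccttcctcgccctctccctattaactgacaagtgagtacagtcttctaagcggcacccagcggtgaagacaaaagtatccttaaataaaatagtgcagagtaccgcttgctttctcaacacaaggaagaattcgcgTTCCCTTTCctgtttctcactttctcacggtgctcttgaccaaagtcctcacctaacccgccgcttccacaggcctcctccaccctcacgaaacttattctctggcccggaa

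The deposited values are FPKM, fragments per kilobase of exon divided by a library factor, so levels of different genes can be compared per length. Between 11057912 and 14902375 fragments on genes could be recovered per library from the steps of the FPKM values, and 3 fragments, taken as the floor, correspond to 0.196 to 0.255 FPKM for a gene of 1 kb. The factor did not follow the recovered fragments: it was 11.7 and 11.9 for shNC and 12.6 and 15.3 for shNAT10, in units of 1e+06 fragments, and shNC-1 had the lowest factor and the most fragments. FPKM summed over all genes stood apart as well, at 2.09e+06 and 1.53e+06 with shNC and 1.18e+06 and 1.20e+06 with shNAT10. *Nat10* itself had 7.79 and 5.42 FPKM with shNC and 2.95 and 3.04 FPKM with shNAT10, which is a log2 fold change (log2FC) of -1.09 (SE 0.21, adjusted p = 0.123 by limma) that was past the threshold given next, but not without shNAT10-1 (-1.07) or without shNAT10-2 (-1.11). Groups were compared by limma on log2(FPKM + 0.1), two-sided, over the 20116 genes with a mean of at least 0.1 FPKM. A gene was called higher or lower when it changed more than 1.2-fold with an unadjusted limma p up to 0.05, which corresponds to a Benjamini-Hochberg adjusted p of 0.302 over all genes tested. The text gives the adjusted p. The smallest p that an exact permutation test of 2 libraries against 2 allows is 0.33, so these p-values rest on the spread that limma shares across genes. Of all genes tested, 8.41% were called higher and 7.83% lower in shNAT10, 23.9% had both shNAT10 libraries above both shNC libraries, and 0.437% had an adjusted p under 0.05.

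*Eif2ak2*, *Zbp1*, *Tlr3* and *Ifih1* rose in shNAT10, which is 4 of the 9 members tested (44.4%, beside 8.41% of all genes). None (0 of 9) fell, and 7.83% of all genes did. The adaptors *Mavs* and *Tmem173*, the most abundant members, differed by less than their spread between libraries. Both shNAT10 libraries lay above both shNC libraries for 6 of the 9 genes (23.9% of all genes did), the called 4 together with *Dhx58* and *Tlr7*. The median log2FC of the 9 genes was 0.44, and that of all genes tested was 0.0054. *Tlr7* reached the minimum mean through its shNAT10 libraries only, and without it the count was 4 higher of 8, the median was 0.48 and the groups did not overlap for 5 of 8. None of the 9 had an adjusted p under 0.05 by limma. By limma-voom on the recovered fragments 3 had one (*Eif2ak2*, *Tlr3* and *Zbp1*, all higher). Of all genes in that fit, 4.23% had one and were higher. With libraries scaled to the same summed FPKM of protein-coding genes, *Tlr3*, *Zbp1* and *Eif2ak2* were still called and *Ifih1* was not (log2FC 0.52).

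**Figure D1:**
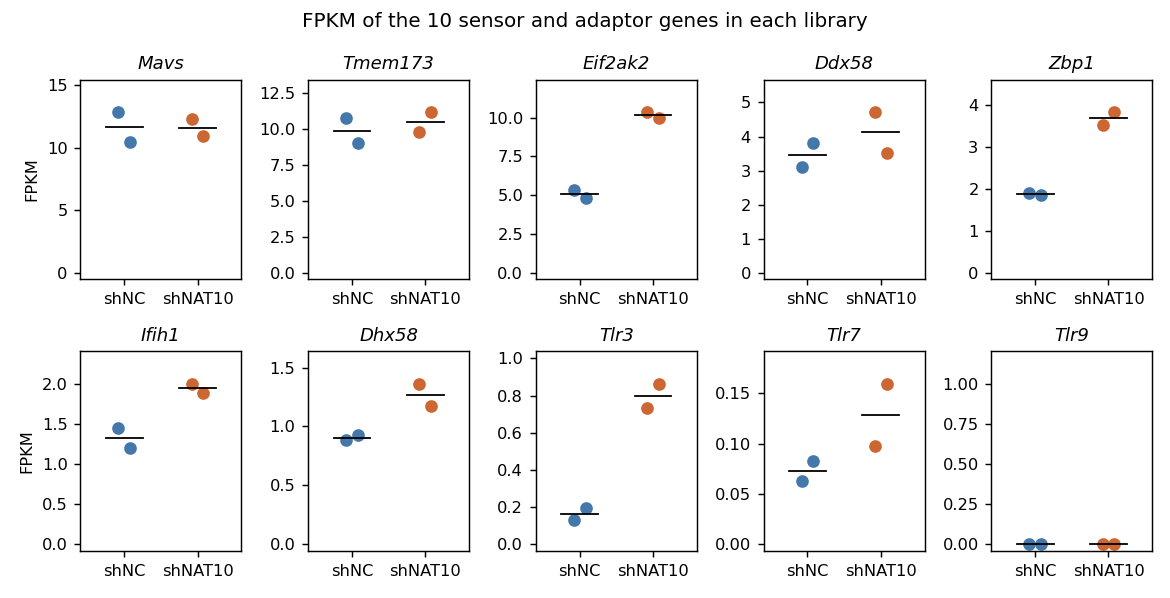
FPKM of each of the 10 genes (a panel each, in order of mean level, with its own linear axis from 0) in the 2 shNC libraries (blue) and the 2 shNAT10 libraries (orange); points are libraries and bars are group means. The groups are apart for *Eif2ak2*, *Zbp1*, *Ifih1*, *Dhx58*, *Tlr3* and *Tlr7*, overlap for *Mavs*, *Tmem173* and *Ddx58*, and are at 0 for *Tlr9*.

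The 10 genes had the same order of mean FPKM in both groups: *Mavs*, *Tmem173*, *Eif2ak2*, *Ddx58*, *Zbp1*, *Ifih1*, *Dhx58*, *Tlr3*, *Tlr7* and *Tlr9*. The means ran in shNC from 11.7 FPKM for *Mavs* to 0.0726 FPKM for *Tlr7*, the lowest member above 0. Of the neighbours in that order, *Mavs* and *Tmem173* had overlapping ranges in both groups. In shNAT10 the ranges of *Tmem173* and *Eif2ak2*, and of *Ddx58* and *Zbp1*, overlapped as well, and the other neighbours were apart. The summed FPKM of the 10 genes was 36.5 and 32.4 in shNC and 44.9 and 43.5 in shNAT10. Within this sum *Eif2ak2* took 14.6% and 14.9% in shNC and 23.1% and 22.9% in shNAT10. *Mavs*, with a mean of 11.7 FPKM in shNC and 11.6 FPKM in shNAT10, took 35.3% and 32.4% in shNC and 27.4% and 25.1% in shNAT10.

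Among the RIG-I-like receptors, *Ifih1* passed the threshold and *Ddx58* and *Dhx58* did not. *Ddx58* (ENSMUSG00000040296; minus strand of chromosome 4, 40203773 to 40239828) had 3.10 and 3.81 FPKM with shNC and 4.72 and 3.53 FPKM with shNAT10. The higher shNC library lay above the lower shNAT10 library, so the groups overlapped. Its log2FC was 0.24 (SE 0.21, 95% interval -0.30 to 0.78, adjusted p = 0.600 by limma), and with 1 library left out it ranged from 0.034 to 0.45.

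*Ifih1* (ENSMUSG00000026896; minus strand of chromosome 2, 62595798 to 62646255) encodes MDA5, the receptor for long double-stranded RNA. It had 1.46 and 1.21 FPKM with shNC and 2.01 and 1.89 FPKM with shNAT10, from 140, 117, 206 and 237 fragments. Both shNAT10 libraries were above both shNC libraries. The log2FC was 0.52 (SE 0.19, adjusted p = 0.288 by limma), with a limma p of 0.0446 and an exact permutation p of 0.33. This call was close to the threshold: it was lost in 9 of 13 alternative settings, which include leaving out any 1 of the 4 libraries (log2FC 0.65 and 0.39 without shNC-1 and shNC-2, 0.48 and 0.56 without shNAT10-1 and shNAT10-2).

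*Dhx58* (ENSMUSG00000017830; minus strand of chromosome 11, 100694884 to 100704271) had 0.885 and 0.927 FPKM with shNC and 1.36 and 1.18 FPKM with shNAT10, from 34, 36, 56 and 59 fragments. The groups did not overlap, but the difference did not pass the threshold, with a log2FC of 0.44 (SE 0.21, 95% interval -0.12 to 1.01, adjusted p = 0.399 by limma). An opposite-strand gene, *Dhx58os*, shares 141 of its 3272 exon bases and had 0.0528 to 0.300 FPKM.

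*Mavs* (ENSMUSG00000037523; plus strand of chromosome 2, 131234063 to 131248025), the adaptor that both receptors use, was the most abundant member. It had 12.9 and 10.5 FPKM with shNC and 12.3 and 10.9 FPKM with shNAT10. Both shNAT10 values lay between the shNC values. The log2FC was -0.0042 (SE 0.14, 95% interval -0.38 to 0.37, adjusted p = 0.994 by limma).

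Of the endosomal receptors, *Tlr3* showed the largest fold change of all members, from a low level. *Tlr3* (ENSMUSG00000031639; minus strand of chromosome 8, 45395665 to 45411080) had 0.131 and 0.194 FPKM with shNC and 0.734 and 0.864 FPKM with shNAT10. These values rest on 8 and 12 fragments against 48 and 69 fragments. The mean FPKM was 4.92-fold higher in shNAT10, and the ratio from the summed fragments was 4.95, with an exact (Clopper-Pearson) 95% interval from counting error alone of 3.07 to 8.41. On the log2(FPKM + 0.1) scale, which understates the change of a low gene, the log2FC was 1.78 (SE 0.36, adjusted p = 0.136 by limma). It was 0.63 with a pseudocount of 1 and 2.27 by limma-voom on the fragments (adjusted p = 0.00200, in a range of 0.00200 to 0.456 over the alternatives), and *Tlr3* was called in all 12 alternatives that tested it. An opposite-strand gene, *Gm45542*, shares 381 of the 5207 exon bases of *Tlr3* and was listed at 0 in 3 libraries and at 0.364 FPKM in shNAT10-1.

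*Tlr7* and *Tlr9*, the receptors that plasmacytoid dendritic cells and B cells are known for, were at the limit of detection. *Tlr7* (ENSMUSG00000044583; minus strand of chromosome X, 167304929 to 167330558) had 0.0626 and 0.0825 FPKM with shNC and 0.0976 and 0.160 FPKM with shNAT10, from 3, 4, 5 and 10 fragments. The groups did not overlap, yet the log2FC of 0.40 (SE 0.63, 95% interval -1.28 to 2.07, adjusted p = 0.795 by limma) was smaller than its error. The ratio from the summed fragments was 1.82, with a counting interval of 0.697 to 5.26, so a difference was not detectable at this depth. *Tlr9* (ENSMUSG00000045322; plus strand of chromosome 9, 106222598 to 106226883) was listed at 0 in all 4 libraries and was not tested. A 0 in this table need not mean absence, because *Trex1* and *Nlrx1*, which most cells express, were listed at 0 as well.

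*Eif2ak2* and *Zbp1*, whose proteins act on translation and on cell death, both rose. *Eif2ak2* (ENSMUSG00000024079; minus strand of chromosome 17, 78852564 to 78882573), which encodes the kinase PKR, had 5.31 and 4.84 FPKM with shNC and 10.4 and 9.96 FPKM with shNAT10. The libraries of a group lay close together and the groups were far apart, from 319, 294, 665 and 781 fragments. The mean FPKM was 2.00-fold higher, a log2FC of 0.99 (SE 0.11, adjusted p = 0.0610 by limma). It was called in all 13 alternatives, with log2FCs of 0.88 to 1.05 and adjusted p from 1.05e-05 (limma-voom) to 0.396. Opposite-strand genes share few of its 5113 exon bases: *Gm26637* shares 174 and had 1.00 to 2.40 FPKM.

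*Zbp1* (ENSMUSG00000027514; minus strand of chromosome 2, 173206612 to 173218923) had 1.91 and 1.84 FPKM with shNC and 3.52 and 3.83 FPKM with shNAT10, from 79, 77, 156 and 207 fragments. Here too the groups were far apart compared with the spread within them. The mean FPKM was 1.96-fold higher, a log2FC of 0.94 (SE 0.14, adjusted p = 0.0933 by limma). It was called in all 13 alternatives, with log2FCs of 0.70 to 0.99 and adjusted p from 0.00365 (limma-voom) to 0.452. *Mlkl*, the executor of necroptosis, which ZBP1 reaches through RIPK3, rose from 8.43 and 7.86 FPKM with shNC to 10.2 and 10.4 FPKM with shNAT10 (log2FC 0.33, adjusted p = 0.231 by limma), a call that was lost without shNAT10-1 (log2FC 0.35), without shNAT10-2 (0.32) and in limma without the trend (adjusted p = 0.412). *Ripk3* had 12.4 and 19.1 FPKM with shNC and 17.9 and 21.5 FPKM with shNAT10, with overlapping groups. *Eif2s1*, which encodes the subunit that PKR phosphorylates, had 47.8 and 44.5 FPKM with shNC and 46.6 and 40.3 FPKM with shNAT10, also with overlapping groups.

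*Tmem173* (ENSMUSG00000024349), which encodes STING, had 10.7 and 9.0 FPKM with shNC and 9.76 and 11.2 FPKM with shNAT10. The groups overlapped, and the log2FC was 0.086 (SE 0.14, 95% interval -0.28 to 0.45, adjusted p = 0.796 by limma). *Mb21d1*, which encodes cGAS, the enzyme that makes the ligand of STING, rose from 4.44 and 3.96 FPKM with shNC to 5.48 and 5.47 FPKM with shNAT10 (log2FC 0.38, SE 0.12, adjusted p = 0.254 by limma). That call was lost in 5 of the 13 alternatives, among them without shNC-2 (log2FC 0.30), without shNAT10-1 (0.38) and without shNAT10-2 (0.38).

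**Figure D2:**
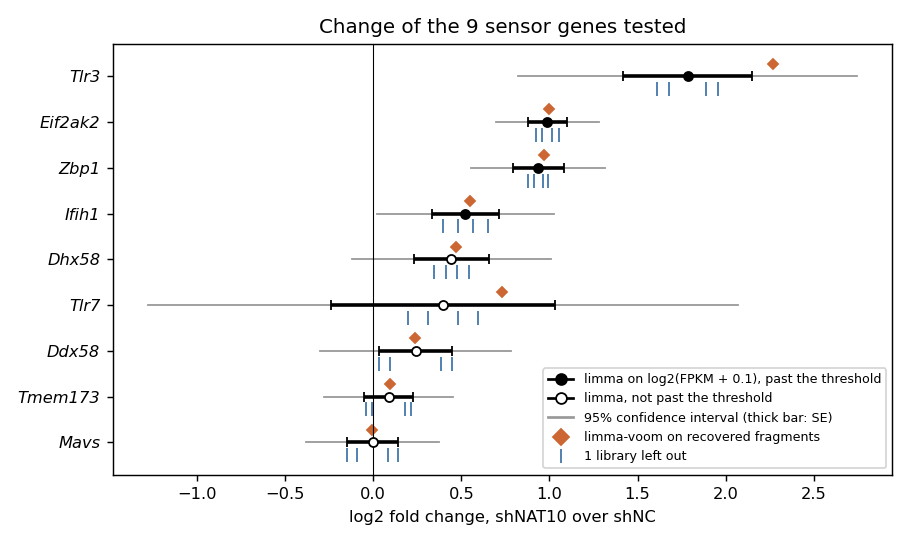
log2FC of shNAT10 over shNC for the 9 genes tested, from limma on log2(FPKM + 0.1) (circles, filled where past the threshold, with the SE as a thick bar and the 95% confidence interval as a thin line), from limma-voom on recovered fragments (diamonds), and with 1 library left out at a time (ticks). *Tlr3* (1.78), *Eif2ak2* (0.99) and *Zbp1* (0.94) stay above 0 throughout, while *Mavs* (-0.0042) and *Tmem173* (0.086) lie on both sides of 0 when libraries are left out.

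The genes around the sensors were read from 5 lists of 145 genes in all. Among 24 tested genes that encode other nucleic acid sensors, 7 rose (29.2%, beside 8.41% of all genes) and none (0) fell (7.83% of all genes did), with a median log2FC of 0.29 (without shNAT10-1 or without shNAT10-2, 4 rose). *Oas1g*, named after its values were seen, reached the minimum mean through shNAT10 only, and without it 6 of 23 rose and the median was 0.26. *Oas1a* and *Oas1b* belong to the family of 2′-5′ oligoadenylate synthetases, whose active enzymes activate RNase L on double-stranded RNA. *Oas1a* had 1.72 and 1.34 FPKM with shNC and 3.38 and 3.63 FPKM with shNAT10, a log2FC of 1.16 (SE 0.19, adjusted p = 0.0991 by limma), and *Oas1b* had a log2FC of 0.81 (SE 0.25). *Aim2*, the inflammasome sensor of cytosolic DNA, had 2.48 and 2.53 FPKM with shNC and 3.78 and 3.71 FPKM with shNAT10 (log2FC 0.56, SE 0.13, adjusted p = 0.168 by limma). The other 3 genes called, *Oas2*, *Oasl2* and *Oas1g*, had a mean under 1 FPKM and are named after their values were seen: *Oas2* had 8 and 6 fragments with shNC but 64 and 88 with shNAT10. The *Oas1* genes are near copies of each other, so reads may have been split between them. None of *Mb21d1*, *Aim2*, *Oas1a* and *Oas1b* kept its call in every alternative. *Aim2* lost it without shNAT10-1 (log2FC 0.55), *Oas1a* without shNAT10-2 (1.11), and *Oas1b* without shNC-1 (0.57), shNAT10-1 (0.81) or shNAT10-2 (0.81).

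Of 40 tested sensor cofactors and signalling genes, 4 rose and 4 fell, which is 10% each way and near the 8.41% and 7.83% of all genes, with a median log2FC of 0.037. *Irf1*, an interferon regulatory factor, rose from 4.07 and 4.77 FPKM with shNC to 7.71 and 7.51 FPKM with shNAT10 (log2FC 0.78, SE 0.13, adjusted p = 0.106 by limma). *Ifi35* (0.64) and *Trim25*, the ubiquitin ligase of RIG-I (0.34), had positive log2FCs past the threshold, as had *Mlkl*. *Hsp90b1*, the chaperone gp96 that many but not all Toll-like receptors need for folding, fell from 304 and 355 FPKM with shNC to 176 and 163 FPKM with shNAT10, a log2FC of -0.95 (SE 0.12, adjusted p = 0.0697 by limma). *Ticam1*, which encodes TRIF, the adaptor of TLR3, fell from 4.35 and 4.96 FPKM with shNC to 2.90 and 2.92 FPKM with shNAT10 (log2FC -0.66, SE 0.14, adjusted p = 0.140 by limma), while *Tlr3* itself rose. *Traf6* (-0.46), the ubiquitin ligase that joins Toll-like receptors to NF-κB, and *Irf5* (-0.37) fell as well. *Unc93b1*, the chaperone that carries the endosomal receptors, had 2.16 and 2.64 FPKM with shNC and 1.96 and 1.97 FPKM with shNAT10 and did not pass the threshold. *Irf3* (log2FC 0.18), *Irf7* (0.18), *Tbk1* (0.094) and *Myd88* (0.21) did not pass it either. *Hsp90b1* and *Irf1* kept their call in every alternative. *Ticam1* lost it without shNAT10-1 (log2FC -0.65) or shNAT10-2 (-0.66), and the list held 2 rises and 3 falls without shNAT10-1 and 1 rise and 3 falls without shNAT10-2.

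Of 26 tested genes whose products limit the sensors or remove their ligands, 5 rose (19.2%, beside 8.41% of all genes) and 2 fell (7.69%, near the 7.83% of all genes), with a median log2FC of 0.010. *Usp18*, a brake on interferon receptor signalling, rose from 4.67 and 8.88 FPKM with shNC to 14.5 and 15.7 FPKM with shNAT10 (log2FC 1.22, SE 0.32, adjusted p = 0.196 by limma). This call was lost without shNAT10-1 or shNAT10-2, and the log2FC ranged from 0.76 without shNC-1 to 1.67 without shNC-2. *Nlrc5* (0.64), *Trim59* (0.60), *Rnaseh2c* (0.40), a subunit of the RNase H2 that clears RNA-DNA hybrids, and *Pnpt1* (0.27), a mitochondrial RNase, had positive log2FCs past the threshold. *Rnaset2a* (-0.51), a lysosomal RNase, and *Mov10* (-0.51), an RNA helicase, fell. *Adar*, whose editing of double-stranded RNA keeps MDA5 and PKR quiet, had 3.67 and 3.39 FPKM with shNC and 4.06 and 4.07 FPKM with shNAT10, groups that did not overlap, with a log2FC of 0.20 (SE 0.13, adjusted p = 0.514 by limma) that did not pass the threshold. *Rnaseh2c* alone kept its call in every alternative. Without shNAT10-1 the list held 1 rise and 1 fall, and without shNAT10-2 it held 1 rise.

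Most interferon transcripts were listed at 0 or rested on few fragments, and a 0 in this table need not mean absence. Of the 18 genes of the interferon loop, 7 were listed at 0 in all 4 libraries (*Ifna1*, *Ifna2*, *Ifna4*, *Ifna5*, *Ifnl2*, *Ifnl3* and *Ifnlr1*). *Ifnb1* was listed at 0 in both shNC libraries and had 0.531 and 0.0870 FPKM in shNAT10, from 5 fragments and 1 fragment, and did not pass the threshold (adjusted p = 0.401 by limma). It reached the minimum mean through shNAT10 only. Of the 11 genes tested, 3 rose (27.3%, beside 8.41% of all genes) and 1 fell (9.09%, near the 7.83% of all genes), with a median log2FC of 0.032, and without *Ifnb1* the median of the other 10 was -0.096. *Irf9*, which encodes a DNA-binding factor of the interferon response, rose from 3.40 and 3.17 FPKM with shNC to 4.6 and 4.07 FPKM with shNAT10 (log2FC 0.39, SE 0.14, adjusted p = 0.279 by limma). *Stat2* had 5.37 and 4.76 FPKM with shNC and 6.56 and 6.15 FPKM with shNAT10, just outside the threshold (log2FC 0.32, adjusted p = 0.308 by limma). The feedback inhibitors went in opposite directions, with *Socs3* higher (0.37) and *Socs1* lower (-0.40). The receptor genes *Ifnar1* (log2FC -0.22) and *Ifnar2* (-0.26) did not pass the threshold. No call in this list was kept in every alternative, and *Irf9* lost it without any 1 of the 4 libraries (log2FC 0.43 and 0.34 without shNC-1 and shNC-2, 0.30 and 0.47 without shNAT10-1 and shNAT10-2).

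Interferon response genes held the largest share of calls of the 5 lists. Of 29 tested, 17 rose (58.6%, beside 8.41% of all genes) and 2 fell (6.90%, near the 7.83% of all genes), with a median log2FC of 0.56. Both shNAT10 libraries lay above both shNC libraries for 22 (23.9% of all genes did). *Cmpk2*, named after its values were seen, reached the minimum mean through shNAT10 only, and without it 16 of 28 rose and 21 had groups apart. *Ifi44* (log2FC 1.89), *Ifit3* (1.72), which helps IFIT1 bind foreign RNA, *Ifit3b* (1.71), *Xaf1* (1.61), *Lgals3bp* (1.39), *Trim30a* (1.23) and *Rtp4* (1.09) rose with log2FCs over 1 with all 4 libraries. *Mx2* (0.99), *Ifit1* (0.91), which binds RNA without a methylated cap, *Herc6* (0.87), *Psmb9* (0.56), *Ifit2* (0.56), *Bst2* (0.51), which tethers budding virus, and *Psmb8* (0.38) rose with lower ones. *Ifit3* had 1.85 and 2.66 FPKM with shNC and 8.13 and 7.03 FPKM with shNAT10 (SE 0.21, adjusted p = 0.0711 by limma). *Ifit3* and *Ifit3b* are near copies, so reads may have been split between them. *Isg20* (-0.83), an exonuclease that degrades RNA, and the chemokine gene *Ccl5* (-1.08) fell. Single libraries moved some of these values: *Lgals3bp* was 0.72 without shNC-1 and 2.06 without shNC-2, and was called in 8 of 13 alternatives, not in the one without shNC-1. *Ccl5* was -0.53 without shNC-2 and -1.64 without shNC-1, and was also called in 8 of 13, not in the one without shNC-2. Without shNC-1, *Herc6* was 0.57 and not called, and *Psmb9* was 0.34. *Lgals3bp*, *Ccl5*, *Herc6* and *Psmb9* each lost their call without shNAT10-1 or shNAT10-2. *Isg15* had 13.1 and 24.6 FPKM with shNC and 23.3 and 22.2 FPKM with shNAT10, with overlapping groups. *Ifit2*, *Ifit3*, *Ifi44*, *Rtp4* and *Trim30a* among the rises and *Isg20* among the falls kept their calls in every alternative. Without shNAT10-1 the list held 8 rises and 1 fall, and without shNAT10-2 it held the same numbers.

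**Figure D3:**
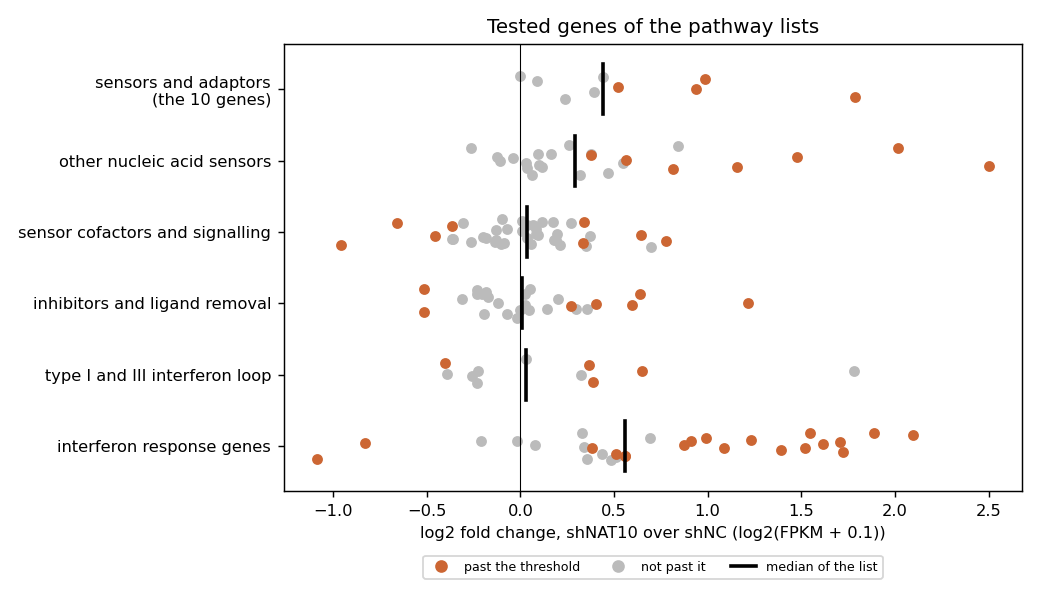
log2FC of shNAT10 over shNC on the log2(FPKM + 0.1) scale for each tested gene of the 10 sensor and adaptor genes and of the 5 pathway lists (1 row each, jittered); orange points passed the threshold, grey points did not, and black bars are list medians. The medians are 0.44 for the sensors and adaptors, 0.56 for the interferon response genes, 0.29 for the other nucleic acid sensors, 0.037 for the cofactors, 0.010 for the inhibitors and 0.032 for the interferon loop, the last being -0.096 without *Ifnb1*.

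Markers of other cell types moved between the groups too, and their part in the changes of the sensor genes was not tested. Of the 15 pan-leukocyte markers, 8 fell (53.3%, beside 7.83% of all genes) and none (0) rose (8.41% of all genes did). Their summed level was 718 to 791 FPKM in shNC and 593 to 608 FPKM in shNAT10. *Fcer1g*, with the largest fall of the list, went from 43.4 and 47.8 FPKM with shNC to 21.9 and 23.4 FPKM with shNAT10. The 7 not called include *Ptprc*, with 15.5 and 15.4 FPKM with shNC and 15.3 and 15.3 FPKM with shNAT10. They also include the 2 markers with a positive log2FC, *Cd48* (0.057) and *Rac2* (0.093). Every other marker list, here and below, held at most 8 tested genes, too few to set its counts beside the shares of all genes. Of 8 tested mast cell markers 2 rose and 2 fell, with sums of 314 to 325 FPKM in shNC and 321 to 324 FPKM in shNAT10, and the other 7 of the list had a mean under 0.1 FPKM. Of 6 tested macrophage markers 1 rose (*Lyz2*) and 2 fell (65.3 to 70.7 FPKM in shNC, 50.5 to 55.3 FPKM in shNAT10). The 2 that fell were *Adgre1*, with 44.7 and 47.8 FPKM with shNC and 33.2 and 38.5 FPKM with shNAT10, and *Fcgr1*. *Fcgr1* had 13.7 and 16.1 FPKM with shNC and 8.09 and 8.36 FPKM with shNAT10. *C1qa*, *C1qb*, *C1qc* and *Marco* were listed at 0. Of 8 tested fibroblast markers 3 rose (47.5 to 54.4 FPKM and 55.9 to 65.5 FPKM), of 5 tested germline markers 1 fell (34.9 to 44.7 FPKM and 43.2 to 51.0 FPKM), and of 5 tested granulosa cell markers none (0) was called (3.71 to 3.82 FPKM and 4.25 to 4.47 FPKM).

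Markers of plasmacytoid dendritic cells, lymphocytes and neutrophils were mostly at or near 0. Of the plasmacytoid dendritic cell markers, *Siglech* and *Ly6d* were listed at 0 in all libraries, and the sum of 42.3 to 55.3 FPKM in shNC and 55.0 to 65.2 FPKM in shNAT10 was mostly *Bst2*, which is also in the list of interferon response genes. Of its 3 tested markers 1 rose and 1 fell. B cell markers summed to 0.452 to 0.835 FPKM in shNC and 0.622 to 0.719 FPKM in shNAT10, with *Cd79b* and *Ms4a1* at 0, and T cell markers to 0.880 to 1.6 FPKM and 0.735 to 1.07 FPKM, with *Cd3e*, *Cd3g*, *Trbc1* and *Trbc2* at 0. None (0) of the 2 B cell markers and the 1 T cell marker tested was called. Neutrophil markers summed to 0.393 to 0.572 FPKM in shNC and 1.12 to 1.26 FPKM in shNAT10, with 1 of 2 tested, *S100a8*, higher and *Ltf* and *S100a9* at 0.

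**Figure D4:**
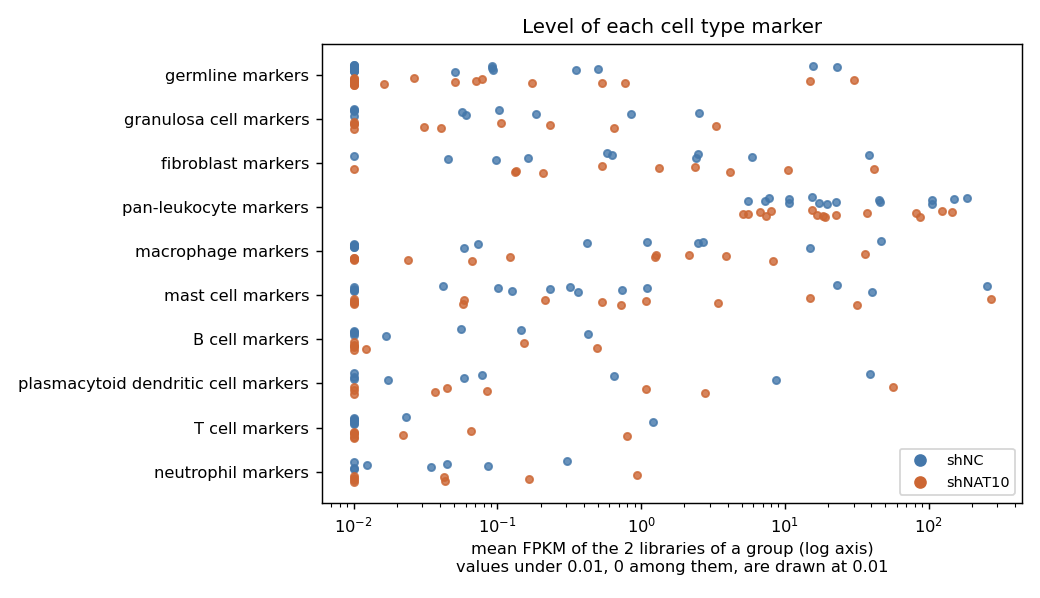
Mean FPKM of each marker gene in shNC (blue) and shNAT10 (orange) on a log axis, by list; values under 0.01 FPKM, 0 among them, are drawn at 0.01. Pan-leukocyte markers and the mast cell marker *Cpa3* (245 to 272 FPKM) stand high, while many germline, B cell and T cell markers lie at the left edge.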

How the data were processed

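Long RNA-seq of 4 libraries (shNC and shNAT10, 2 each, grouped by the labels) was used. Per the labels and the methods, the authors trimmed reads with cutadapt, aligned them with HISAT2 to mm10 and compared groups with DESeq2, and deposited FPKM for 53465 genes. The methods describe rRNA depletion and the labels mRNA isolation, and whether counting used strand is not given in the sources used here. A deposited table of the authors' own fold changes and p-values was not used.

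Whole fragments were recovered from FPKM and GENCODE M21 exon lengths (53360 genes). At least 96.0% of values under 50 fragments were whole to within 0.02, where chance gives 4%. Intervals from them cover counting error only. Limma 3.58.1 in R 4.3.3 (lmFit, eBayes with trend) was run on log2(FPKM + 0.1) over all 20116 genes with a mean of at least 0.1 FPKM. The study calls the libraries of a group biological replicates, without saying whether they came from separate infections or cultures, and p-values measure the spread between these samples. The members, the lists, the motifs and the tests were chosen with earlier results of these data known. Named genes are all members and each pathway gene past the threshold with a mean of at least 1 FPKM. Others are named as context, after their values were seen. A gene of the lists is counted but not reported here by name. Alternatives were pseudocounts of 1 and 0.01, no filter, a mean of at least 1 FPKM, 2 other scalings, no trend, a replicate block, limma-voom on fragments and each library left out. The planned alignment of member proteins was not run.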

Additional observations from a re-analysis of the deposited data

How the results depend on the processing

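Of 115 alternative values of the 9 sensor genes tested, 101 kept direction and side of the threshold. The number of sensor genes that rose was 3 to 4 in 12 of the 13 alternatives and 2 at a mean of at least 1 FPKM, where *Tlr3* was not tested and *Ifih1* lost its call. *Eif2ak2* and *Zbp1* were called in all 13 alternatives, *Tlr3* in all 12 that tested it and *Ifih1* in 4. Directions changed only for the 2 adaptors. *Mavs* was 0.0092 under quantile normalization, 0.14 without shNC-1 and 0.082 without shNAT10-2, in a range of -0.15 to 0.14 with 1 library left out. *Tmem173* was -0.039 without shNC-2 and -0.0097 without shNAT10-2, in a range of -0.039 to 0.21. With 1 library left out, 1108 to 1734 genes rose and 899 to 1659 fell over all genes, 16 to 34 rose and 4 to 10 fell over the pathway lists (16 and 5 without shNAT10-1, 16 and 4 without shNAT10-2), 3 sensor genes rose and none (0) fell, and *Nat10* had a log2 fold change of -1.35 to -0.83 (-1.07 without shNAT10-1 and -1.11 without shNAT10-2, neither past the threshold). These fits assume that the lone library of a group varies like the others. The number of genes with an adjusted p under 0.05 was 88 in the reported fit, 0 under 9 alternatives, 140 to 296 under 3 and 1580 by limma-voom. Deviations of libraries with the same replicate number had a correlation of 0.007 over all genes tested, genes with few fragments among them. This value cannot tell whether such libraries shared a culture or a batch, which is not given in the sources used here. With the replicate number as a block, 3 sensor genes rose (*Tlr3*, *Zbp1* and *Eif2ak2*), *Ifih1* lost its call (log2 fold change 0.52, adjusted p = 0.351 by limma), and no gene (0) had an adjusted p under 0.05. The depth of 11057912 to 14902375 fragments limits *Tlr7* and *Ifnb1*, which had 22 and 6 fragments in all.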
